A study of Mus musculus with 29 samples.

Results

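Interferon-stimulated genes were measured in regenerating and intact mouse digits after a nerve injury. The 34 genes were taken from a list of symbols, with no threshold on measured values. That list was chosen with earlier results of these data known. All 34 were found by symbol among the 24411 genes of the time course table, and by mapped Ensembl identifier among the 55487 genes of the amputation table. All 34 also passed the filter on low counts in both tables (16084 and 17475 genes tested), so each of them is accounted for in every comparison.

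In spared nerve injury (SNI), the tibial and common peroneal nerves, branches of the sciatic, were cut in the left hindlimb, while sham mice were operated on with the nerves left whole. In the time course, digit tips of SNI and sham mice were amputated through the third phalanx 5 days after surgery. Tissue beyond the metacarpophalangeal joint, without the nail, was collected 7, 14 and 21 days after amputation. Each of these groups had 3 libraries, except sham at day 21, which had 2. The amputation set held 12 further libraries, all from SNI mice, with 3 amputated and 3 unamputated samples at each of days 7 and 14. Its amputated digits were also cut 5 days after surgery. For the unamputated samples no such interval was recorded, so their match in time since nerve injury is not certain. Labels of the unamputated samples name a regenerate digit and days after amputation in the tissue and time fields, but state no amputation in the treatment field, which was followed here. Strain, age and sex are not stated in the labels. The labels call the samples biological replicates.

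Type I interferons signal through a receptor on nearly all nucleated cells to the kinases Jak1 and Tyk2, which phosphorylate Stat2. Stat2 joins Irf9 in a complex that binds the interferon-stimulated response element in promoters of genes such as Isg15, the Ifit family, Mx1 and Rsad2. The products act against viruses, and some of them (Irf7, Stat2, Irf9) feed the pathway forward, while Usp18 restrains it. In skin, keratinocytes and immune cells are both known to express them.

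Total counts per library were 35654192 to 56809440 in the time course and 31274245 to 43315729 in the amputation set. The 34 genes together received 6923 to 13461 and 5787 to 9551 of these counts. Values below are CPM, which are counts relative to the library's total, scaled by the trimmed mean of M values (TMM). A pair of time course libraries stood apart by its scaling factor: 0.761 in SNI day 7 replicate 2 and 0.633 in sham day 21 replicate 1, against 0.943 to 1.11 in the others. The same pair had the lowest length slopes, -0.56 and -0.73, where the length slope is how log2 CPM, relative to each gene's mean, changes per doubling of transcript length. The other 15 time course libraries had slopes from -0.38 to 0.40, and the 12 libraries of the amputation set from -0.15 to 0.07. SNI day 7 replicate 2 also held the highest summed level of 9 neutrophil markers, 14510.5 CPM. The neutrophil sums in the other time course libraries were 13.6 to 268 CPM.

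All 34 genes were detected without any interferon treatment, at low levels. Divided by transcript length, time course means were highest for Ifi27l2a (29.7 CPM per kb), a small interferon-induced membrane protein, and Ifi35 (17.4 CPM per kb). Bst2, the tetherin that holds budding virions at the cell surface, followed at 12.7 CPM per kb, and Irf9 at 10.1 CPM per kb. At the low end were Mx2 (0.105 CPM per kb), Oas2 (0.111 CPM per kb) and Mx1 (0.155 CPM per kb). Counts for these 3 genes were as low as 1 read for Mx2, 0 for Oas2 and 7 for Mx1 in a time course library, so their fold changes carry wide errors.

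Ligand transcripts were close to absent. All 20 listed interferon genes were in both tables and none passed the filter on low counts. Ifnb1 and every listed Ifna gene had no read in the 17 time course libraries, and the summed level of the 20 ligands did not exceed 0.323 CPM there or 0.17 CPM in the amputation set. Ifng, the type II ligand, reached at most 0.152 CPM in the time course and 0.13 CPM in the amputation set. Receptor transcripts were present: Ifnar1 ranged from 18.6 to 50 CPM and Ifnar2 from 17.4 to 35.2 CPM in the time course. Of 6 listed markers of plasmacytoid dendritic cells, Siglech stood between 0.126 and 0.746 CPM there, Klk1 and Cox6a2 at most at 0.14 and 0.395 CPM, and Pacsin1 between 0.0913 and 4.17 CPM. The other two were higher, Ccr9 at 5.15 to 8.93 CPM and Ly6d at 1067 to 5964 CPM. Keratinocyte markers, which define the epidermis of the digit, summed to 34561 to 76253 CPM in the time course.

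No interferon-stimulated gene passed the test between SNI and sham digits at any day. The question of this comparison was whether denervation alters gene expression in the regenerating digit tip. With edgeR's quasi-likelihood test and Benjamini-Hochberg adjustment over 16084 genes, 0 of the 34 had an adjusted p under 0.05 in the mean of the 3 days, on day 7, on day 14, on day 21 or in the test of a difference between days. The background was also 0% (0 of 16084 genes) in each of these comparisons. At an unadjusted p under 0.05, 7 of the 34 genes were counted in the mean of days, 7 on day 7, 3 on day 14, 0 on day 21 and 1 in the difference between days. The shares of all genes under that threshold were 14%, 13.6%, 5.93%, 2.2% and 3.66%. DESeq2 called 0 of the 34 in each as well, and 163, 53, 67, 12 and 3 of all genes. Fewer cells of a type and less RNA per cell cannot be told apart in such bulk samples.

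The fitted log2 fold changes of the 34 genes lay mostly above 0 on the first 2 days and around 0 on the last. Their median, SNI over sham, was 0.45 on day 7 (23 of 34 positive), 0.50 on day 14 (25 positive) and 0.00 on day 21 (18 positive). Medians over all tested genes were 0.02, 0.03 and -0.10. Averaged over days, the median of the 34 was 0.33 with 25 positive, against 0.01 for all genes, of which 51.5% were positive. One library carried the day 7 value: without SNI day 7 replicate 2 the day 7 median was -0.12, and the median over days was 0.17. Without SNI day 7 replicate 1 or sham day 7 replicate 2 the day 7 median was 0.69 or 0.75. The day 14 median stayed between 0.20 (without SNI day 14 replicate 3) and 0.61 whichever single library was left out, and the day 21 median between -0.21 and 0.31.

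**Figure D1:**
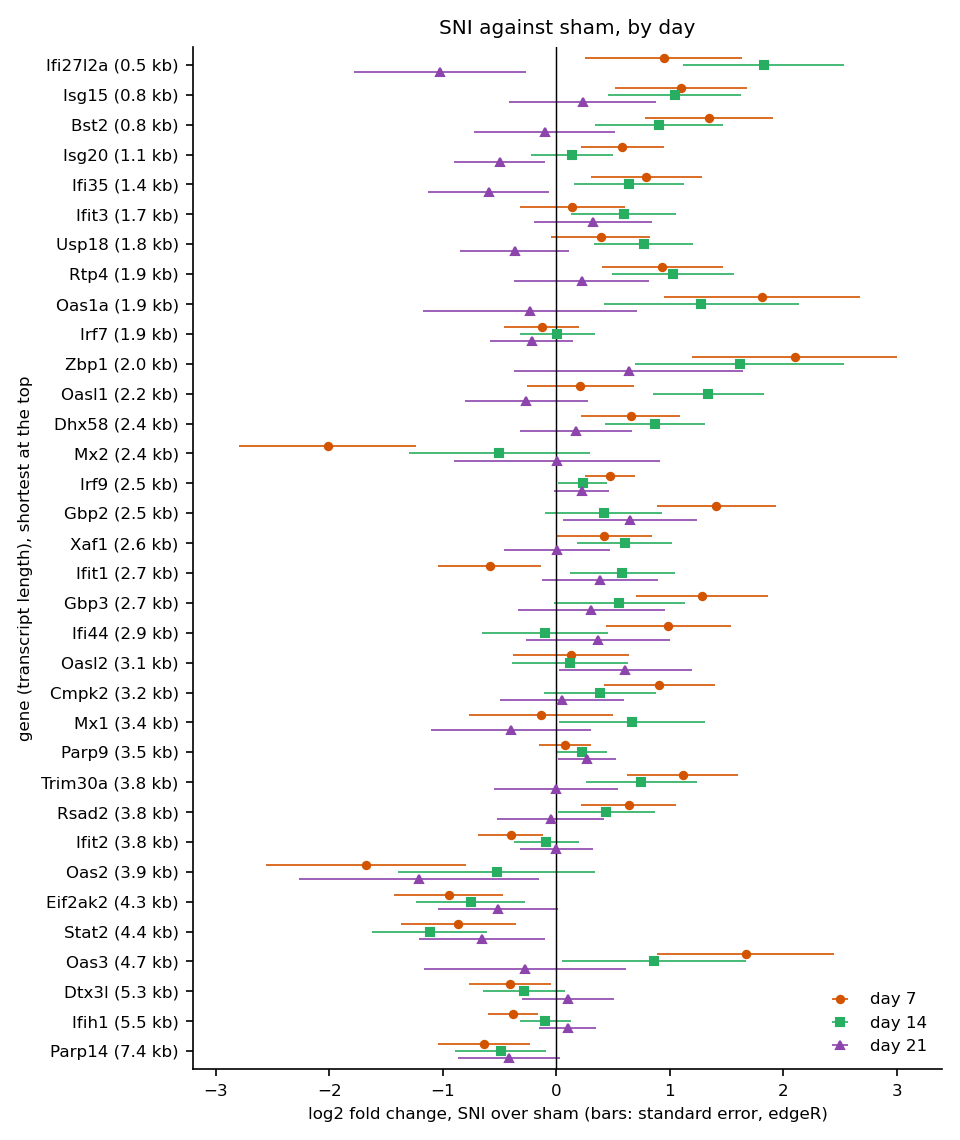
Log2 fold change of each of the 34 genes, SNI over sham, at days 7, 14 and 21 (points) with the edgeR standard error (bars); genes run down the page from the shortest to the longest transcript. Day 7 and day 14 points of short transcripts lie mostly right of 0, while Stat2, Eif2ak2 and Parp14 lie left of 0 on all 3 days, and none of the points passed the test.

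On day 7 the lowest p among the 34, none of them past the threshold, belonged to Gbp2 (1.41 ± 0.53), Mx2 (-2.02 ± 0.78), Bst2 (1.35 ± 0.56), Zbp1 (2.10 ± 0.90) and Trim30a (1.11 ± 0.49), each with an edgeR adjusted p of 0.301. On day 14 they were Oasl1, Ifi27l2a, Stat2, Dhx58 and Rtp4, from -1.12 ± 0.51 for Stat2 to 1.83 ± 0.71 for Ifi27l2a (edgeR adjusted p = 0.578 each). On day 21 they were Ifi27l2a (-1.03 ± 0.76), Isg20 (-0.50 ± 0.40), Stat2, Oas2 (-1.21 ± 1.06) and Ifi35 (-0.60 ± 0.54), at an edgeR adjusted p of 1. Ifi27l2a had the smallest p in the test of a difference between days (unadjusted p = 0.0449, edgeR adjusted p = 0.712).

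The 5 genes with the smallest p in the mean of days were Stat2 (log2 fold change -0.88 ± 0.30, standard error), Zbp1 (1.45 ± 0.55), Gbp2 (0.83 ± 0.32), Eif2ak2 (-0.74 ± 0.29) and Irf9 (0.31 ± 0.13). Their edgeR adjusted p ranged from 0.337 to 0.343. Irf9, the DNA-binding subunit of the complex, shares exon bases with Rnf31 on the same strand, so its counts are uncertain. The values by library follow in the order of the genes' roles.

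Among the transducers, Stat2 acts in interferon signalling as the partner of Irf9. On day 7 Stat2 had 7.59, 6.05 and 7.73 CPM in SNI digits, against 20.3, 11.5 and 7.17 CPM in sham digits. On day 14 it had 12.2, 5.07 and 4.63 CPM in SNI digits, against 15.7, 15.6 and 16.2 CPM in sham digits. The groups overlapped on day 7 through 1 sham library and did not overlap on day 14, where all 3 sham libraries were close together. Stat2 on day 21 had 8.03, 3.15 and 4.98 CPM in SNI digits, against 3.91 and 13 CPM in sham digits, with the lower of the sham values in the library that stood apart. Its log2 fold change was -0.86 ± 0.50 on day 7, -1.12 ± 0.51 on day 14 and -0.65 ± 0.56 on day 21, with edgeR adjusted p of 0.302, 0.578 and 1.

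Irf7, the transcription factor that amplifies interferon production, showed no such separation. Irf7 had 9.09, 14.9 and 11.4 CPM in SNI digits, against 12.6, 15 and 11.1 CPM in sham digits on day 7. The day 14 libraries had 7.03, 13.7 and 11.1 CPM in SNI digits, against 10.2, 13.7 and 7.7 CPM in sham digits. The groups overlapped on both days, and the fitted log2 fold changes were -0.13 ± 0.33 and 0.01 ± 0.33. On day 21 the values were 9.05, 17.5 and 15.4 CPM in SNI digits, against 20.2 and 12.3 CPM in sham digits. Irf7 shares exon bases with Phrf1 on the opposite strand; the kit keeps strand, but whether counting used it was not given.

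Usp18 removes Isg15 from proteins and dampens the receptor. It had 2.14, 3.01 and 2.28 CPM in SNI digits, against 0.96, 2.83 and 1.87 CPM in sham digits on day 7, with all 3 SNI libraries inside or just above the sham range. On day 14 Usp18 had 1.47, 2.55 and 3.67 CPM in SNI digits, against 1.33, 1.51 and 1.66 CPM in sham digits. Its day 21 values were 1.78, 2.77 and 3.73 CPM in SNI digits, against 4.85 and 2.3 CPM in sham digits, where the library that stood apart was the highest of the day.

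Isg15, a ubiquitin-like modifier, had its highest value of all in SNI day 7 replicate 2. Isg15 had 2.56, 8.15 and 2.24 CPM in SNI digits, against 1.5, 2.87 and 1.64 CPM in sham digits on day 7. Day 14 gave 1.4, 2.44 and 4.26 CPM in SNI digits, against 1.51, 1.28 and 1.13 CPM in sham digits, and on day 21 2.12, 3.2 and 6.59 CPM in SNI digits, against 4.67 and 2.12 CPM in sham digits. The SNI and sham libraries overlapped on each day, and the fitted log2 fold changes were 1.10 ± 0.58, 1.04 ± 0.59 and 0.23 ± 0.65.

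Bst2 had 8.69, 33.7 and 9.49 CPM in SNI digits, against 4.8, 9.72 and 5.85 CPM in sham digits on day 7. On day 14 its libraries had 5.48, 9.16 and 14.4 CPM in SNI digits, against 5.19, 4.69 and 5.63 CPM in sham digits. A single SNI library was far above the rest on day 7, and on day 14 the SNI library with the lowest value lay within the sham range. Bst2 on day 21 had 6.79, 10.7 and 14.2 CPM in SNI digits, against 17.1 and 5.67 CPM in sham digits. The log2 fold change of Bst2 in the mean of days was 0.72 ± 0.34 (edgeR adjusted p = 0.359).

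Gbp2, a guanylate-binding GTPase that attacks vacuoles of intracellular pathogens, had 6.81, 40.9 and 9.26 CPM in SNI digits, against 6.14, 8.91 and 6.35 CPM in sham digits on day 7. On day 14 Gbp2 had 6.73, 8.05 and 12 CPM in SNI digits, against 6.41, 6.08 and 7.55 CPM in sham digits. Replicate 2 of SNI day 7 was again the high one, and the groups overlapped on both days. Gbp2 had 8.71, 11.6 and 13.2 CPM in SNI digits, against 5.62 and 8.62 CPM in sham digits on day 21, where the groups did not overlap. Reads of the related gene Gbp2b could have been split with it, which was not tested.

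Zbp1, a sensor of Z-form nucleic acid, had 0.741, 11.7 and 1.29 CPM in SNI digits, against 0.67, 1.96 and 0.545 CPM in sham digits on day 7. The day 14 values of Zbp1 were 0.774, 0.849 and 2.82 CPM in SNI digits, against 0.559, 0.381 and 0.505 CPM in sham digits, with no overlap between the groups. Its log2 fold change had the largest size among the 34 on day 7, 2.10 ± 0.90, and the edgeR adjusted p was 0.301. On day 21 Zbp1 had 0.827, 1.21 and 2.37 CPM in SNI digits, against 1.01 and 0.88 CPM in sham digits, and the groups overlapped.

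The RNA-activated kinase Eif2ak2 (PKR), which halts translation, was again on the low side in SNI digits. Eif2ak2 had 10.3, 5.44 and 7.16 CPM in SNI digits, against 18.8, 15 and 10.4 CPM in sham digits on day 7, with no overlap. On day 14 it had 15.7, 6.64 and 5.13 CPM in SNI digits, against 16.5, 14.3 and 15.6 CPM in sham digits, and 1 SNI library lay within the sham range. The day 21 values were 9.73, 6.66 and 4.42 CPM in SNI digits, against 4.67 and 15.1 CPM in sham digits. The log2 fold change was -0.95 ± 0.48 on day 7 and -0.76 ± 0.48 on day 14, with edgeR adjusted p of 0.301 and 0.578.

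Ifit1 and Ifit3, which bind viral RNA, overlapped between SNI and sham on every day. Ifit1 had 1.88, 2.28 and 1.82 CPM in SNI digits, against 2.01, 4.75 and 2.22 CPM in sham digits on day 7. On day 14 Ifit1 had 1.73, 1.44 and 3.12 CPM in SNI digits, against 1.37, 1.14 and 1.68 CPM in sham digits. The highest of these 12 values was in sham day 7 replicate 2, and on day 21 the gene had 1.78, 3.86 and 3.98 CPM in SNI digits, against 1.29 and 3.57 CPM in sham digits. Ifit3, whose reads may be shared with Ifit3b, had 4.79, 7.6 and 3.68 CPM in SNI digits, against 3.1, 7.68 and 3.75 CPM in sham digits on day 7. It had 2.63, 3.99 and 6.22 CPM in SNI digits, against 2.63, 2.08 and 3.8 CPM in sham digits on day 14. On day 21 Ifit3 had 3.65, 6.63 and 9.79 CPM in SNI digits, against 4.15 and 6.53 CPM in sham digits.

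Rsad2 (viperin) makes an antiviral nucleotide and had 2.24, 6.08 and 3.57 CPM in SNI digits, against 1.59, 3.61 and 2.43 CPM in sham digits on day 7. On day 14 Rsad2 had 1.48, 1.44 and 2.62 CPM in SNI digits, against 1.44, 1.03 and 1.61 CPM in sham digits. These groups overlapped too, as did those of day 21, with 1.95, 2.14 and 3.39 CPM in SNI digits, against 3.24 and 1.94 CPM in sham digits. The GTPase Mx1 stayed at or below 0.999 CPM in all 17 libraries. Mx1 had 0.441, 0.852 and 0.332 CPM in SNI digits, against 0.491, 0.999 and 0.273 CPM in sham digits on day 7. On days 14 and 21 it had 0.84, 0.257 and 0.655 CPM in SNI digits, against 0.559, 0.381 and 0.168 CPM in sham digits, and 0.292, 0.657 and 0.488 CPM in SNI digits, against 0.279 and 0.951 CPM in sham digits.

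Oas2, which makes the 2-5A signal for RNase L, had 0.34, 0.426 and 0.155 CPM in SNI digits, against 1.36, 1.26 and 0.315 CPM in sham digits on day 7. Day 14 gave 0.576, 0.129 and 0.327 CPM in SNI digits, against 0.536, 0.572 and 0.409 CPM in sham digits. SNI and sham overlapped on both days, and the day 21 values were 0.268, 0.0548 and 0.0488 CPM in SNI digits, against 0 and 0.539 CPM in sham digits, with no read in the sham library that stood apart. Ifi27l2a had 8.69, 35 and 15.5 CPM in SNI digits, against 6.47, 15.8 and 8.43 CPM in sham digits on day 7. On day 14 Ifi27l2a had 4.43, 13.4 and 23.5 CPM in SNI digits, against 3.33, 4.1 and 4.21 CPM in sham digits, with no overlap and a log2 fold change of 1.83 ± 0.71 (edgeR adjusted p = 0.578). On day 21 the order was mixed, with 7.74, 13.4 and 17.3 CPM in SNI digits, against 44.7 and 7.61 CPM in sham digits. Counts of Ifi27l2a may be split with its neighbour Ifi27l2b.

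Separation of libraries without overlap was compared with the whole table. On day 7, 0 of the 34 genes were higher in every SNI library than in every sham library, against 13.7% of all genes, and 3 (8.82%; Ifit2, Mx2 and Eif2ak2) were lower, against 23.8% of all genes. On day 14, 7 genes (20.6%) were higher without overlap, against 11% of all genes: Oasl1, Rtp4, Dhx58, Zbp1, Trim30a, Gbp3 and Ifi27l2a. Stat2 alone (2.94%) was lower on day 14, against 12.2% of all genes. On day 21, Irf9 and Gbp2 (5.88%) were higher, against 4.36%, and 0 were lower, against 3.3%.

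Of the genes apart on day 14, Oasl1, which restrains Irf7 translation in mice, had 0.478, 0.566 and 1.09 CPM in SNI digits, against 0.163, 0.267 and 0.409 CPM in sham digits on day 14 (log2 fold change 1.34 ± 0.49, edgeR adjusted p = 0.578). Dhx58, the regulator of RIG-I-like receptors known as LGP2, had 1.84, 2.62 and 3.56 CPM in SNI digits, against 1.51, 1.3 and 1.59 CPM in sham digits that day. Rtp4, a receptor transporter protein, had 3.34, 2.83 and 7.07 CPM in SNI digits, against 2.42, 1.7 and 2.38 CPM in sham digits. Exon bases of Rtp4 are shared with Gm45338 on the same strand, so its counts are uncertain. In all 3 genes the highest value of the day was in SNI day 14 replicate 3. Oasl1 counts were low, from 7 to 50 reads per time course library. Macrophage markers (13 of 13 in the table) summed to 513 to 1163 CPM in SNI and 287 to 322 CPM in sham on day 14, and T cell markers (8 of 9) to 8.31 to 13.0 CPM in SNI and 4.93 to 5.72 CPM in sham. The neutrophil sums on day 14 were 38.9 to 220.0 CPM in SNI and 15.4 to 19.9 CPM in sham. Keratinocyte sums were apart that day as well, at 45172 to 65061 CPM in SNI and 68906 to 76253 CPM in sham. So were NK cell sums (1.14 to 2.62 CPM in SNI, 0.606 to 0.842 CPM in sham). Erythroid sums were 182.5 to 437.7 CPM in SNI and 130.6 to 182.4 CPM in sham. Fibroblast, osteoblast, endothelial, B cell and plasmacytoid dendritic cell sums overlapped. EdgeR called none of these markers on day 14. The part of these cell types in the values of these genes was not tested.

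**Figure D2:**
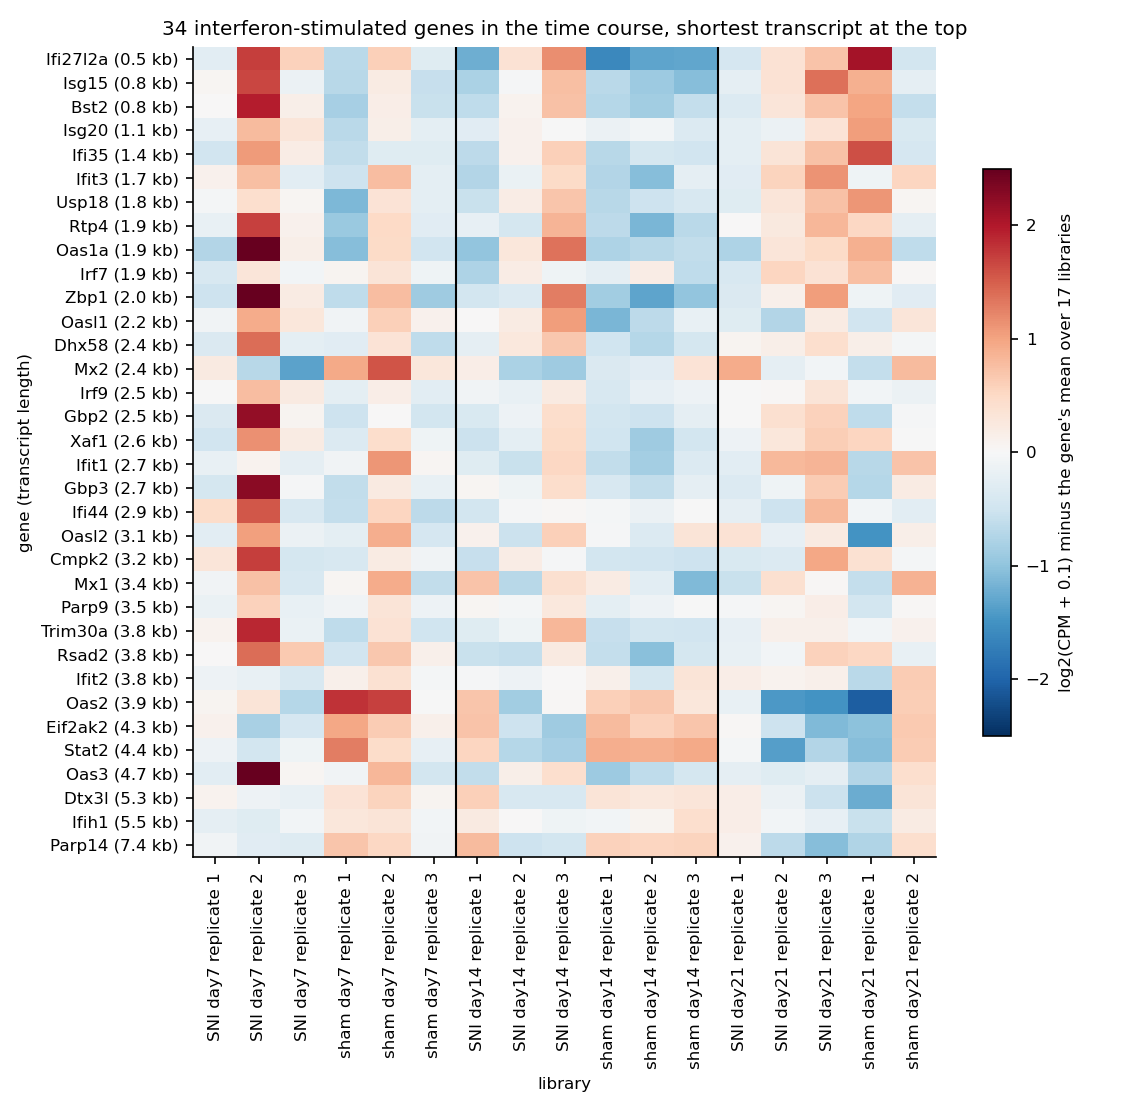
Level of each of the 34 genes (rows, shortest transcript at the top) in the 17 time course libraries (columns, SNI left of sham at each day), as log2 CPM with a small constant added, relative to the gene's mean; colours saturate at the ends of the scale. SNI day 7 replicate 2 is the highest library for 17 genes, and sham day 21 replicate 1 is the highest for 5 and the lowest for 8.

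The 34 genes did not all move together across libraries, and their levels differed with transcript length. SNI day 7 replicate 2 was the highest of the 17 libraries for 17 of the 34 genes. Sham day 21 replicate 1 was the highest for 5 (Isg20, Irf7, Usp18, Ifi35 and Ifi27l2a) and the lowest for 8 (Ifit2, Oas2, Oasl2, Ifih1, Parp9, Dtx3l, Gbp2 and Gbp3). At the median transcript length of 2626.5 bases the list divides into 17 short and 17 long genes. In sham day 21 replicate 1, with a length slope of -0.73, the short genes averaged 2.33 and the long ones 0.84 on the log2 CPM scale. In sham day 7 replicate 1, with the highest slope of 0.40, the short genes averaged 1.35 and the long ones 1.72.

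**Figure D3:**
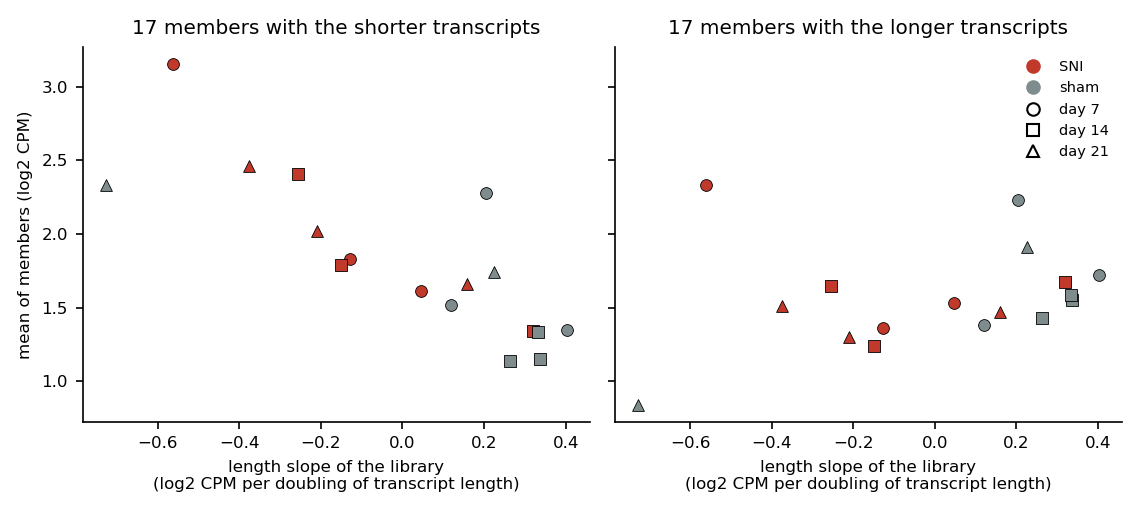
Mean log2 CPM of the 17 genes with shorter transcripts (left) and the 17 with longer ones (right) in each time course library, against the library's length slope; red points are SNI, grey points sham, and shapes give the day. Short genes average 3.16 and 2.33 at the 2 lowest slopes and 1.35 at the highest, and long genes average 2.34 and 0.84 at the 2 lowest and 1.72 at the highest.

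Length slopes on day 7 were -0.56 to 0.05 in SNI and 0.12 to 0.40 in sham libraries, with no overlap. On day 14 they were -0.26 to 0.32 in SNI and 0.26 to 0.34 in sham, and on day 21 -0.38 to 0.16 in SNI and -0.73 to 0.23 in sham. The short genes of the list had a median log2 fold change of 0.66 on day 7 (15 of 17 positive), and the long ones -0.13 (8 of 17 positive). For all tested genes cut at the same length, the medians were 0.43 for short and -0.35 for long ones. On day 14 the list's medians were 0.77 and 0.12, against 0.31 and -0.21 over all genes. On day 21 they were 0.00 and 0.00, against -0.25 and -0.01. With the length slope as a covariate, a step added after seeing the data, the median of the 34 was 0.00 on day 7, 0.14 on day 14 and 0.08 on day 21. On day 7, where the slopes of SNI and sham libraries did not overlap, surgery and slope cannot be told apart in this fit. What sets the slope was not tested.

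Stat2 (4394 bases), Eif2ak2 (4313 bases) and Parp14 (7417 bases), a mono-ADP-ribosyltransferase, are among the longest of the list. Their fitted log2 fold changes, SNI over sham, were negative at all days. Parp14 had 6.05, 5.26 and 5.12 CPM in SNI digits, against 10.3, 9.15 and 6.04 CPM in sham digits on day 7, and a log2 fold change of -0.51 ± 0.24 in the mean of days. Its day 14 values were 11.1, 4.45 and 4.63 CPM in SNI digits, against 9.6, 9.34 and 9.48 CPM in sham digits. That 11.1 CPM was its highest of the 17 libraries. On day 21 Parp14 had 6.86, 4.03 and 3 CPM in SNI digits, against 3.77 and 8.54 CPM in sham digits, so the groups overlapped. Parp14 shares exon bases with Gm49730 on the same strand, so its counts are uncertain. Oas3, another long gene (4720 bases), had a positive day 7 fold change (1.67 ± 0.78, edgeR adjusted p = 0.301), with 0.42, 5.05 and 0.554 CPM in SNI digits, against 0.491, 1.02 and 0.357 CPM in sham digits on day 7. That sign rested on SNI day 7 replicate 2, since the other 2 SNI libraries were below the sham mean of 0.622 CPM. Parp9 and Dtx3l, partners in DNA damage and interferon signalling, share exon bases on opposite strands and had log2 fold changes of 0.19 ± 0.14 and -0.20 ± 0.22 in the mean of days.

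Between days within a surgery, 0 of the 34 passed the edgeR test and the background was 0% (0 of 16084) in each comparison. In sham digits the median log2 fold change of the 34 was -0.36 for day 14 over day 7 (5 of 34 positive; all genes -0.01) and 0.00 for day 21 over day 7 (16 positive; all genes -0.01). In SNI digits it was -0.31 for day 14 over day 7 (12 positive; all genes 0.04) and -0.27 for day 21 over day 7 (7 positive; all genes 0.00). Both comparisons within a surgery share their day 7 libraries. Smallest p values belonged to Ifit1, Oasl1, Rsad2, Ifi27l2a and Mx2 in sham digits at day 14, and to Ifi35, Usp18, Isg20, Ifi27l2a and Oas2 at day 21. In SNI digits they belonged to Rsad2, Oas3, Gbp2, Cmpk2 and Ifi44 at day 14, and to Oas3, Trim30a, Zbp1, Gbp3 and Oas1a at day 21. None of these passed. Genes at an unadjusted p under 0.05 numbered 2, 1, 2 and 1 of the 34 in these 4 comparisons, against 1.96%, 20.3%, 3.03% and 3.87% of all genes, and DESeq2 called 0 of the 34 in each. Without SNI day 7 replicate 2 the SNI medians were 0.14 and 0.24, and without SNI day 7 replicate 1 they were -0.53 and -0.45. Leaving out SNI day 14 replicate 3 gave an SNI median of -0.52 for day 14. Without sham day 7 replicate 2 the sham medians were -0.04 for day 14 and 0.39 for day 21. Leaving out sham day 21 replicate 2 left the library that stood apart as the only sham sample of that day, and 8 of the 34 were then called for day 21 over day 7, with 8331 of all genes.

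In the amputation set, Bst2, Isg15 and Gbp2 rose and Irf7 fell in amputated digits of SNI mice, relative to unamputated ones. The other 30 genes did not pass the test in the mean of days 7 and 14. The 4 calls are 11.8% of the 34, and the background was 11.8% as well (2060 of 17475 genes, 998 higher and 1062 lower), so the list was called no more often than genes at large. The median log2 fold change of the 34 was 0.11 (24 positive), against 0.01 for all genes. It was 0.05 without amputated day 14 replicate 1 and 0.06 without amputated day 7 replicate 3 or unamputated day 14 replicate 3. At an unadjusted p under 0.05 there were 8 of the 34, against 29.5% of all genes.

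On day 7 Bst2 had 8.69, 6.1 and 6.62 CPM in amputated digits, against 4.71, 4.67 and 5.52 CPM in unamputated digits. On day 14 Bst2 had 5.82, 7.28 and 6.13 CPM in amputated digits, against 4.83, 4.6 and 4.24 CPM in unamputated digits. Every amputated library was above every unamputated one of its day, and the log2 fold change in the mean of days was 0.51 ± 0.12 (edgeR adjusted p = 0.0203). Isg15 had 2.47, 1.91 and 2.11 CPM in amputated digits, against 1.64, 1.43 and 1.65 CPM in unamputated digits on day 7. Its day 14 values were 2.62, 2.59 and 2.3 CPM in amputated digits, against 1.85, 1.33 and 1.22 CPM in unamputated digits. The groups of Isg15 were apart on both days, with a log2 fold change of 0.62 ± 0.15 (edgeR adjusted p = 0.0243).

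Gbp2 had 9.3, 7.49 and 7.28 CPM in amputated digits, against 5.38, 5.93 and 6.88 CPM in unamputated digits on day 7. The day 14 libraries of Gbp2 had 8.67, 9.06 and 10.3 CPM in amputated digits, against 5.41, 6.56 and 7.77 CPM in unamputated digits. Again the groups did not overlap on either day, and the log2 fold change was 0.45 ± 0.12 (edgeR adjusted p = 0.0296). Irf7 had 14, 9.73 and 9.79 CPM in amputated digits, against 14.4, 12.2 and 15.9 CPM in unamputated digits on day 7. On day 14 Irf7 had 10.5, 12.3 and 10.3 CPM in amputated digits, against 17.7, 13.3 and 15.2 CPM in unamputated digits. Irf7 overlapped on day 7 and not on day 14, with a log2 fold change of -0.41 ± 0.12 (edgeR adjusted p = 0.0428).

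The sizes of these 4 differences were similar whichever library was left out, at 0.42 to 0.56 for Bst2, 0.56 to 0.71 for Isg15, 0.39 to 0.52 for Gbp2 and -0.51 to -0.36 for Irf7. The calls were less stable: none of the 4 was left without unamputated day 7 replicate 1 or without unamputated day 7 replicate 2, and 1 was left without unamputated day 14 replicate 2 (Bst2) or replicate 3 (Gbp2). Another 3 libraries left 2 calls each: amputated day 7 replicate 1 (Bst2 and Irf7), amputated day 14 replicate 3 and unamputated day 14 replicate 1 (Bst2 and Isg15 in both). Irf7 lost its call in 11 of 12 such fits. With the length slope as a covariate Irf7 alone was called, among 307 of all genes. Slopes of the amputated libraries were -0.15 to 0.03 and of the unamputated ones -0.02 to 0.07.

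**Figure D4:**
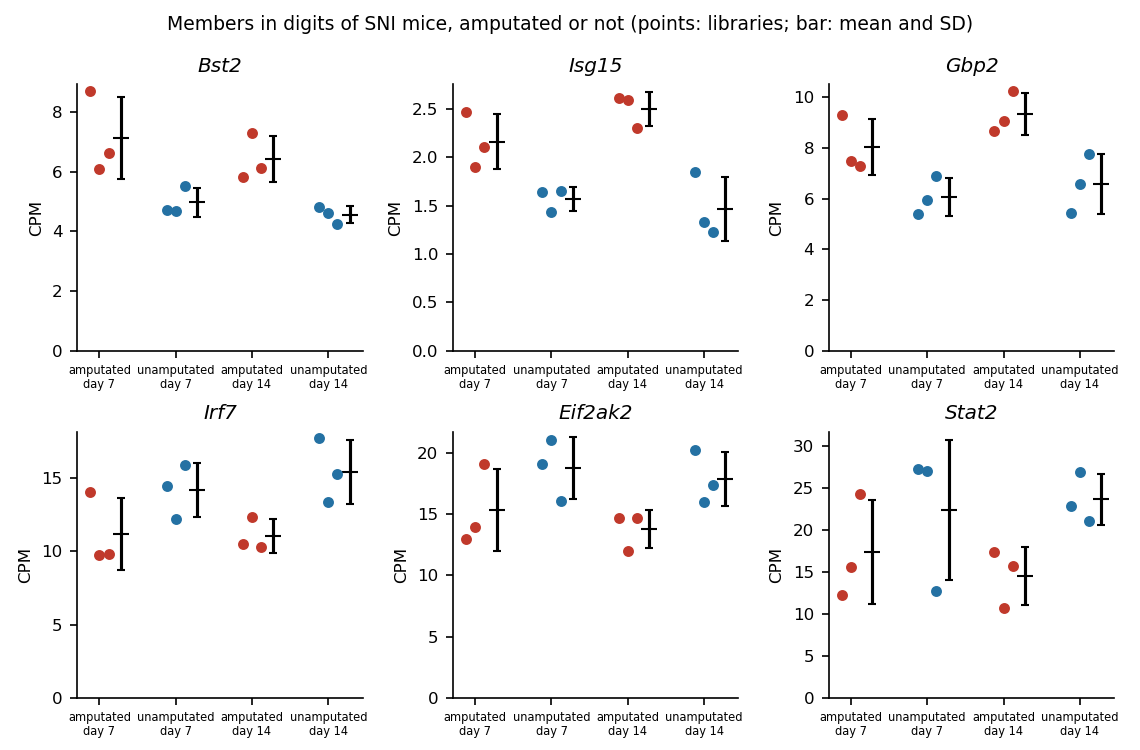
CPM of 6 genes in each library of the amputation set, amputated (red) left of unamputated (blue) at days 7 and 14; the black mark and bar are the mean and SD of 3 libraries. Bst2, Isg15 and Gbp2 are higher in every amputated library of a day, Irf7 is lower without overlap on day 14, and Eif2ak2 and Stat2 did not pass the test.

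The promoters of the 4 genes that passed are shown because the interferon-stimulated response element is the site through which type I interferon is known to act on such genes. The windows run from 250 bases before to 50 after the RefSeq start (GRCm38.p6), on the gene's strand. They lie at chr8:71537423-71537722 (minus strand, Bst2), chr4:156200769-156201068 (minus, Isg15), chr3:142620413-142620712 (plus, Gbp2) and chr7:141266375-141266674 (minus, Irf7). Capitals mark matches to the element's core, GAAANNGAAA, on either strand.
Bst2: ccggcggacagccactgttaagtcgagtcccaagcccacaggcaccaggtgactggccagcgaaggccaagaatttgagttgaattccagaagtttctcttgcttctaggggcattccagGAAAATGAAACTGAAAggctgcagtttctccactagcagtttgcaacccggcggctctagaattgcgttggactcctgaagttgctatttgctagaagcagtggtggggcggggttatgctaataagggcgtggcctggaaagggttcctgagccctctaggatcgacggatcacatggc
Isg15: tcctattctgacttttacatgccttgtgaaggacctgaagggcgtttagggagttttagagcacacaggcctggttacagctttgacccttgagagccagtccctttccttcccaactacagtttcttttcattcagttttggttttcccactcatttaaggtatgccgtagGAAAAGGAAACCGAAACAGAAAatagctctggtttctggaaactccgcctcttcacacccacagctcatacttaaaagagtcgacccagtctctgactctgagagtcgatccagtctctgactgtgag
Gbp2: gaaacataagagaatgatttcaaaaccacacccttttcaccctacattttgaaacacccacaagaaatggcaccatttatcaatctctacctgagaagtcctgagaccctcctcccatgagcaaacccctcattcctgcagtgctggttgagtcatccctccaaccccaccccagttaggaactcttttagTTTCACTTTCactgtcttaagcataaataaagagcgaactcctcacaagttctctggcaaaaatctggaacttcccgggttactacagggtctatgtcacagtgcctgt
Irf7: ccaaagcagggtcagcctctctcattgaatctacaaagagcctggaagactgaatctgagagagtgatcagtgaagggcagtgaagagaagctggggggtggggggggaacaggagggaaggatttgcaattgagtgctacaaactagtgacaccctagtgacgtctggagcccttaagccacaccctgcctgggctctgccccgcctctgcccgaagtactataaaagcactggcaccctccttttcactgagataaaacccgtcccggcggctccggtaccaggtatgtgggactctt

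Bst2 holds 2 overlapping matches, Isg15 3 in a row that overlap each other, Gbp2 1 on the opposite strand, and Irf7 none in this window. Of the 34 genes, 24 have an entry in the RefSeq promoter table, and 13 of these (54.2%) hold the core in at least 1 window. Over all genes of the table the share is 3.99% (1079 of 27025), and counted by window it is 46.7% (14 of 30) for the list and 3.44% (1131 of 32851) for all. The longer form GAAANNGAAACT was found in 7 of the 24 genes (29.2%), against 0.303% of all genes. The gamma-activated site TTCNNNGAA, on either strand, was found in 6 (25%), against 9.55% of all genes, and in Bst2 it overlaps a core match. Mx1, Mx2, Oas2, Usp18, Rtp4, Dhx58, Zbp1, Parp9, Parp14 and Ifi27l2a have no entry. A match describes letters only and is no measurement of a bound factor, and no match says only that these letters are not in this window.

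Day by day, 0 of the 34 passed the edgeR test between amputated and unamputated digits, on day 7 (background 1.35%, 236 of 17475 genes) or on day 14 (2.75%, 481 genes). At an unadjusted p under 0.05, 6 of the 34 were counted on day 7 and 8 on day 14, against 15.1% and 24% of all genes. DESeq2 called 0 of the 34 on day 7, among 727 of all genes, and 2 (Isg15 and Gbp2) on day 14, among 1866 of all genes. On day 7 the median log2 fold change of the 34 was 0.24, with 28 positive, against 0.00 for all genes. On day 14 it was -0.03, with 15 positive, against 0.01. Without amputated day 7 replicate 3 the day 7 median was 0.15, and without unamputated day 14 replicate 2 the day 14 median was 0.13. Smallest p values on day 7 belonged to Bst2 (0.52 ± 0.17, edgeR adjusted p = 0.162), Gbp3, Rtp4, Gbp2 and Ifi44, and on day 14 to Isg15 (0.77 ± 0.21, edgeR adjusted p = 0.0648), Gbp2, Oas2, Bst2 and Irf7.

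On day 7, 8 of the 34 (23.5%) were higher in every amputated library than in every unamputated one, against 10.4% of all genes: Isg15, Oasl2, Rtp4, Ifi44, Ifih1, Bst2, Gbp2 and Gbp3. None was lower in that way, against 8.86% of all genes. On day 14, 6 (17.6%) were higher, against 15.9%, namely Isg15, Isg20, Ifi44, Ifih1, Bst2 and Gbp2, and 6 (17.6%) were lower, against 16.7%, namely Mx1, Oas2, Irf7, Stat2, Parp14 and Eif2ak2. On both days 5 (14.7%) were higher, against 4.29%, and 0 were lower, against 3.42%. The 5 were Isg15, Ifi44, Ifih1, Bst2 and Gbp2.

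Of those not called, Ifi44, whose product binds the chaperone FKBP5 in human cells, had 0.359, 0.432 and 0.88 CPM in amputated digits, against 0.312, 0.297 and 0.231 CPM in unamputated digits on day 7. Day 14 gave 0.421, 0.452 and 0.584 CPM in amputated digits, against 0.246, 0.369 and 0.272 CPM in unamputated digits (mean of days 0.84 ± 0.29, edgeR adjusted p = 0.0744). Ifi44 counts were low, from 8 to 33 reads per library of the amputation set. Ifih1 (MDA5), the sensor of long double-stranded RNA, had 9.88, 10.4 and 10.3 CPM in amputated digits, against 9.32, 8.52 and 8.26 CPM in unamputated digits on day 14. Its values were tight, with a log2 fold change of 0.20 ± 0.08 in the mean of days and an edgeR adjusted p of 0.122.

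Eif2ak2 and Stat2 were on the low side in amputated digits in the mean of days, and edgeR called neither. Eif2ak2 had 13, 13.9 and 19.1 CPM in amputated digits, against 19.1, 21.1 and 16.1 CPM in unamputated digits on day 7. On day 14 Eif2ak2 had 14.7, 12 and 14.7 CPM in amputated digits, against 20.3, 16 and 17.4 CPM in unamputated digits (mean of days -0.33 ± 0.11, edgeR adjusted p = 0.0769), with no overlap on the second of these days. Stat2 had 12.2, 15.6 and 24.2 CPM in amputated digits, against 27.3, 27.1 and 12.8 CPM in unamputated digits on day 7. The day 14 values of Stat2 were 17.3, 10.7 and 15.7 CPM in amputated digits, against 22.9, 26.9 and 21.1 CPM in unamputated digits (mean of days -0.53 ± 0.22, edgeR adjusted p = 0.138). DESeq2 called Eif2ak2 in the mean of days beside the 4 genes above, so 5 of the 34, among 3059 of all genes.

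**Figure D5:**
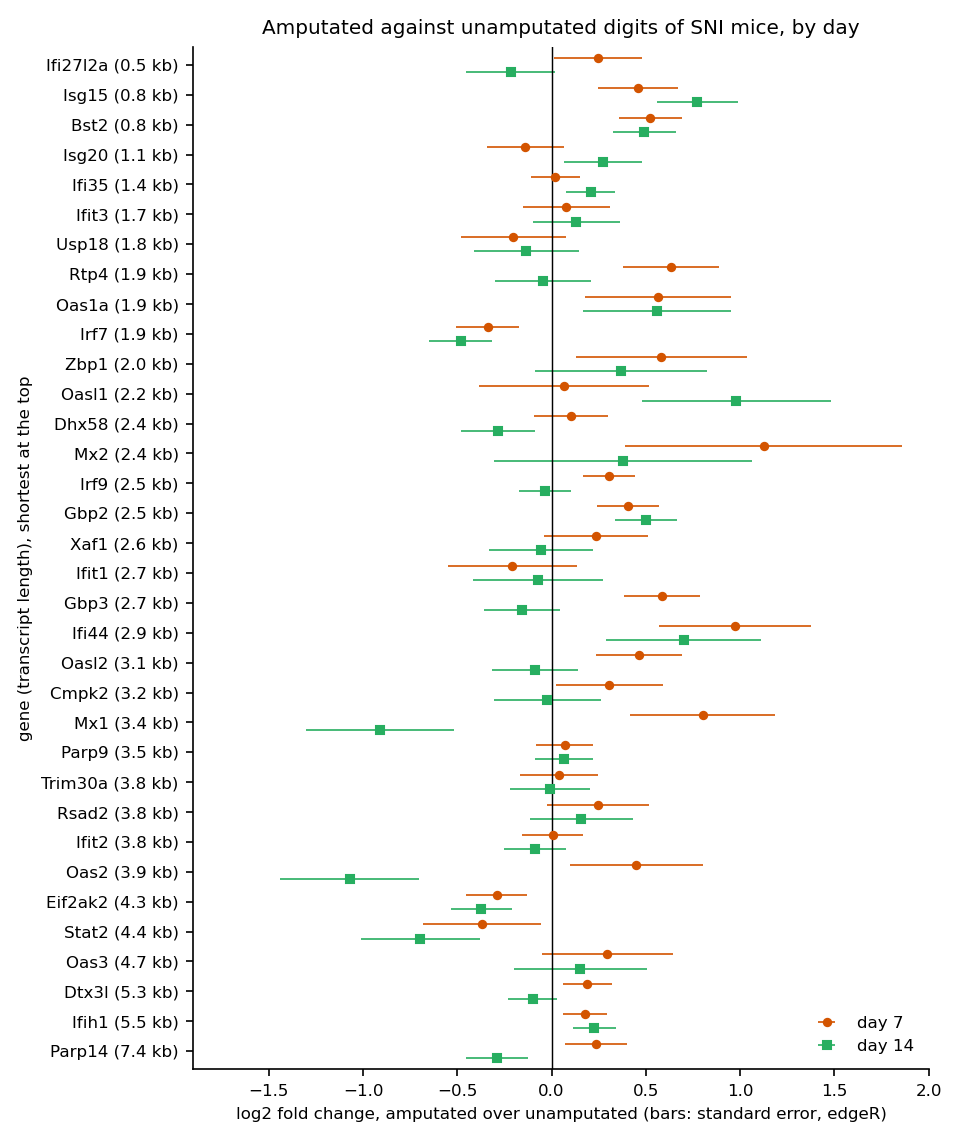
Log2 fold change of each of the 34 genes, amputated over unamputated, at days 7 and 14 (points) with the edgeR standard error (bars), from the shortest transcript at the top to the longest. Bst2, Isg15 and Gbp2 lie right of 0 on both days, and Mx1 and Oas2 lie right of 0 on day 7 and left of it on day 14.

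Mx1 and Oas2 had opposite signs on the days. Mx1 had 1.03, 0.864 and 2.16 CPM in amputated digits, against 0.832, 0.62 and 0.867 CPM in unamputated digits on day 7. On day 14 Mx1 had 0.724, 0.421 and 0.714 CPM in amputated digits, against 1.17, 1.53 and 0.815 CPM in unamputated digits. The groups nearly parted upwards on day 7 and parted downwards on day 14, with log2 fold changes of 0.80 ± 0.38 and -0.91 ± 0.39. Oas2 had 1.01, 2.03 and 2.56 CPM in amputated digits, against 1.46, 1.59 and 1.04 CPM in unamputated digits on day 7. Day 14 gave 0.981, 0.753 and 0.746 CPM in amputated digits, against 1.75, 2.36 and 1.14 CPM in unamputated digits, and the log2 fold changes were 0.45 ± 0.35 and -1.07 ± 0.37. The difference between days itself was -1.71 ± 0.55 for Mx1 (unadjusted p = 0.00837, edgeR adjusted p = 0.769) and -1.52 ± 0.51 for Oas2 (unadjusted p = 0.0106, edgeR adjusted p = 0.772). Of the 34, 0 passed in that test, and of all genes 0%. At an unadjusted p under 0.05 it counted 4 of the 34, against 6.25% of all genes, and DESeq2 called 0 of the 34.

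Within the amputated digits, day 14 over day 7, 0 of the 34 passed (background 0.607%, 106 genes), with 3 at an unadjusted p under 0.05, against 13.3% of all genes, and a median log2 fold change of -0.13 (9 positive). Oas2 had the smallest p there (-1.16 ± 0.36, edgeR adjusted p = 0.207), followed by Mx1 (-1.11 ± 0.39) and Parp14 (-0.42 ± 0.16). Within the unamputated digits 0 passed (background 0.303%, 53 genes), with 1 at an unadjusted p under 0.05, against 4.97% of all genes, and a median of 0.06 (22 positive). Leaving out 1 library gave medians of -0.18 to -0.02 in amputated and -0.03 to 0.16 in unamputated digits. The unamputated gene was Oasl1 (-1.24 ± 0.49, edgeR adjusted p = 0.896), with only 4 to 44 reads per library of the amputation set. DESeq2 called 0 of the 34 in both.

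Zbp1, Ifi27l2a, Usp18, Ifit1, Ifit3 and Rsad2 overlapped between amputated and unamputated digits on each day. Zbp1 had 1.48, 1.24 and 1.07 CPM in amputated digits, against 0.494, 0.863 and 1.18 CPM in unamputated digits on day 7. On day 14 Zbp1 had 1.26, 1.11 and 1.14 CPM in amputated digits, against 0.923, 1.51 and 0.299 CPM in unamputated digits. Its unamputated values spread more widely than its amputated ones. Ifi27l2a had 10.7, 5.39 and 5.68 CPM in amputated digits, against 5.77, 6.04 and 6.56 CPM in unamputated digits on day 7. On day 14 it had 4.58, 5.72 and 5.06 CPM in amputated digits, against 5.81, 6.79 and 5.25 CPM in unamputated digits. One amputated day 7 library was higher than the other 11. Usp18 had 1.84, 0.991 and 2.24 CPM in amputated digits, against 2.05, 1.65 and 2.14 CPM in unamputated digits on day 7. On day 14 Usp18 had 1.89, 1.93 and 1.72 CPM in amputated digits, against 2.15, 2.3 and 1.63 CPM in unamputated digits, with overlap on both days.

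Ifit1 had 2.31, 1.93 and 2.56 CPM in amputated digits, against 2.34, 2.32 and 3.21 CPM in unamputated digits on day 7. On day 14 Ifit1 had 2.87, 1.54 and 2.37 CPM in amputated digits, against 2.15, 3.72 and 1.28 CPM in unamputated digits. The day 14 unamputated libraries spanned all of the amputated values. Ifit3 had 4.47, 3.18 and 4.51 CPM in amputated digits, against 3.56, 3.56 and 4.39 CPM in unamputated digits on day 7. On day 14 Ifit3 had 4.46, 3.61 and 4.22 CPM in amputated digits, against 4, 4.71 and 2.53 CPM in unamputated digits. Rsad2 had 2.65, 1.73 and 2.08 CPM in amputated digits, against 2.26, 1.13 and 2.05 CPM in unamputated digits on day 7, and the groups of Ifit3 and Rsad2 overlapped on each day. The day 14 values of Rsad2 were 1.94, 2.08 and 2.27 CPM in amputated digits, against 2.12, 1.99 and 1.52 CPM in unamputated digits.

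The rest of the pathway was read from lists of genes around the 34. In the time course 0 genes of any list were called in the mean of days: 0 of 6 receptors, 0 of 11 signal transducers, 0 of 11 nucleic acid sensors, 0 of 10 restraining genes, 0 of 46 tested other type I interferon-stimulated genes and 0 of 32 tested genes induced by interferon gamma. The medians of these last 2 lists were 0.33 and 0.51, with 36 of 46 and 26 of 32 positive, against 0.01 for all genes. On days 7, 14 and 21 the type I list had medians of 0.49, 0.39 and -0.005, with 23 of 46 positive on day 21. The gamma list had 0.83, 0.47 and 0.24, and all genes 0.02, 0.03 and -0.10. How far these medians rest on SNI day 7 replicate 2 or on the length slope was not tested. In the amputation set 11.8% of all genes were called in the mean of days. There Ifngr1, a chain of the interferon gamma receptor, rose by 0.34 ± 0.09 on the log2 scale (edgeR adjusted p = 0.0284), as 1 of 6 receptors. Socs3, an inhibitor of cytokine signalling, rose by 0.77 ± 0.20 (adjusted p = 0.0315), as 1 of 10 restraining genes.

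Among 50 tested other type I interferon-stimulated genes, 3 rose and 1 fell in amputated digits, where 11.8% of all genes were called. Ly6e (0.24 ± 0.05, edgeR adjusted p = 0.017), Ifitm3 (0.36 ± 0.10, adjusted p = 0.0339) and Ifitm1 (0.77 ± 0.22, adjusted p = 0.0441) rose; the Ifitm proteins hinder viral entry through membranes. Pnpt1, a mitochondrial exoribonuclease, fell by 0.36 (adjusted p = 0.0159). Of 33 tested genes induced by interferon gamma 2 rose, beside the same 11.8% of all genes: Psme2, a proteasome activator subunit (0.32 ± 0.07, adjusted p = 0.0135), and Tap2, a peptide transporter of antigen presentation (0.40 ± 0.10, adjusted p = 0.0243). None of 11 signal transducers and none of 11 sensors was called. By day, no gene of these lists passed on day 7, and Pnpt1 (-0.56 ± 0.11, adjusted p = 0.0363) and Psme2 (0.39 ± 0.09, adjusted p = 0.0484) passed on day 14.

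Cell type markers moved in the same comparison. The Schwann cell markers Pmp22, Mag and Mbp fell in amputated digits. Of 8 keratinocyte markers 4 fell (Krt1, Krt10 and Flg with the smallest p) and 1 rose (Krt15), with sums of 50924 to 64338 CPM in amputated and 68176 to 84969 CPM in unamputated digits. Macrophage markers (13 of 13 in the table) summed to 387 to 974 CPM in amputated and 421 to 528 CPM in unamputated digits, and 1 of them, Cx3cr1, rose by 0.66 ± 0.13. Of the 13, 8 had a positive log2 fold change in the mean of days (median 0.07). On day 14 only 4 were positive (median -0.11), while Cx3cr1 rose by 0.90 ± 0.18. T cell markers (9 of 9) summed to 7.34 to 10.2 CPM in amputated and 4.42 to 8.03 CPM in unamputated digits, and 1 of 7 tested, Cd3g, rose by 0.83 ± 0.25. Neutrophil markers summed to 16.9 to 128 CPM in amputated and 12.9 to 62.3 CPM in unamputated digits, and 8 of 9 tested had a positive log2 fold change (median 0.83), while the ninth, the receptor Cxcr2, fell. Slc4a1 of red cells, Lum of fibroblasts, Dmp1 and Ibsp of bone cells, and Pecam1 and Cdh5 of endothelium rose. The part of these cell types in the levels of the 34 genes was not tested.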

How the data were processed

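RNA-seq read counts per gene were deposited by the authors in 2 tables, one of the time course (gene symbols) and one of the amputation set (Ensembl identifiers, 99.38% with a symbol). Reads came from poly(A) RNA and a strand-specific kit, per the labels' protocols. The build was GRCm39, per the submitters' processing notes; the aligner, the counter and use of strand in counting were not given in the sources used here. Names and transcript lengths came from GENCODE M21 (GRCm38), and promoters from RefSeq (GRCm38.p6), with no conversion of coordinates.

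Each table was fitted whole in R 4.3.3 with edgeR 4.0.16 (TMM, filterByExpr with a minimum count of 10 and a minimum total of 15, robust quasi-likelihood test), with Benjamini-Hochberg adjustment over all genes tested and calls at an adjusted p under 0.05. Errors are standard errors unless named as SD. DESeq2 1.42.0, DESeq2-type size factors (RLE), no filter, a replicate block and leaving out each library were alternatives; the length slope as covariate, and leaving out both libraries with a TMM factor under 0.8, were added after seeing the data. Tables were never compared with each other. Replicates differed by more than sampling noise. The p-values set a difference between groups against the spread between samples within groups, estimated over all groups of a table. The common biological coefficient of variation from edgeR was 0.39 in the time course and 0.17 in the amputation set. The scripts were tested on simulated counts.

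Genes named in a comparison are those called without overlap of libraries, up to 10 by smallest p, or the 5 with the smallest p where fewer than 5 were called; up to 4 called genes are named from each list around the pathway, and 14 members are given by library. The members and lists were chosen with earlier results of these data known. One Schwann cell marker, and sums that include it, are not reported here.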

Additional observations from a re-analysis of the deposited data

How the results depend on the processing

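In the time course, the count of the 34 genes called stayed at 0 in all 9 comparisons under DESeq2, RLE size factors, no filter, the replicate block, the length slope as covariate and the removal of both libraries of a low TMM factor. Leaving out 1 library at a time it was 0 in 151 of 153 cases; it ranged from 0 to 8 for sham day 21 over day 7 and from 0 to 1 for the difference between days (Ifi27l2a, without sham day 21 replicate 2). In both, the spread of the lone sham library of day 21 was taken from the other groups. The median log2 fold change ranged from -0.12 to 0.75 on day 7, from -0.53 to 0.14 for SNI day 14 over day 7, from -0.45 to 0.24 for SNI day 21 over day 7, and from -0.15 to 0.39 for sham day 21 over day 7; it ranged from 0.17 to 0.44 for the mean of days and from -0.54 to -0.04 for sham day 14 over day 7. Without both low-TMM libraries these were -0.12, 0.14 and 0.24 for the first 3, and with the length slope the day 7 median was 3.82e-05. The cause was not tested.

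Of the 4 calls in the mean of amputation days, 4 remained under RLE, 4 and Eif2ak2 under DESeq2, 3 without the filter (Isg15 lost), 3 under the replicate block (Irf7 lost, with 1114 genes called in place of 2060) and 1 with the length slope. Leaving out 1 library, the count of the 34 called ranged from 0 to 4; where it was 4, Irf7 was lost and Eif2ak2 (without amputated day 7 replicate 3) or Stat2 (without unamputated day 7 replicate 3) was added. The median over amputation days ranged from 0.05 to 0.15. On day 14 DESeq2 called 2, and the median ranged from -0.13 to 0.13. Over all genes edgeR and DESeq2 called 0 and 163 (SNI over sham, mean of days), 0 and 53, 67 and 12 (days 7, 14 and 21), 0 and 3 (difference), 2060 and 3059 (amputated over unamputated, mean of days), 236 and 727, and 481 and 1866 (amputated over unamputated, days 7 and 14), and 106 and 452, and 53 and 149 (day 14 over day 7, amputated and unamputated). The share of promoter windows with the element was 46.7% for the core and 26.7% for the longer form. Of same-numbered pairs, 5 of 8 in the time course and 0 of 6 in the amputation set correlated above 0.1. In the time course 7 of 16 samples, and in the amputation set 0 of 12, correlated best with their own number. The 2 sham libraries of day 21 deviate from their own mean in opposite ways by construction, so their pairs say little. Whether replicate numbers pair the time course samples was not settled. Low counts of Mx1, Mx2 and Oas2 limit what their folds can show. The same holds for Oasl1, Ifi44 and Oas3, whose lowest counts were 7, 13 and 8 reads in the time course. In the amputation set their lowest counts were 4, 8 and 14 reads.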
